A study of Mus musculus with 10 samples.

Results

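The genes described here are *Cadps*, *Cadps2*, *Unc13a*, *Unc13b*, *Unc13c*, *Rims1*, *Rims2*, *Syt1* and *Syt2*, 9 of the 33502 gene symbols counted in single nuclei of the mouse thalamus, taken at its paraventricular nucleus (PVT) and the tissue next to it. They were taken by symbol, as genes whose proteins make synaptic vesicles ready for fusion and couple fusion to calcium, and all 9 are counted in the matrix. Because they were proposed for how their levels differed between cell types and between groups of neurons, those differences are described below without a test. The tissue was punched from C57BL/6J mice aged 12 weeks, with several animals pooled for each sample and no treatment or genetic change named in the labels. There were 10 libraries, of which 6 are titled female and 4 carry no sex in their titles. The deposited metadata list all 13002 nuclei of the latter as male, and these 4 libraries are called the first set here. A library, not a nucleus, is the replicate throughout. Nothing in the labels says which animals went into which library beyond this, so the spread between libraries may be partly technical.

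A vesicle that has reached the release site cannot fuse until it has been primed. Munc13 proteins, encoded by the *Unc13* genes, open syntaxin so that the SNARE complex can form, RIM proteins (*Rims1*, *Rims2*) hold Munc13, calcium channels and vesicles together at the active zone, and synaptotagmins (*Syt1*, *Syt2*) are the calcium sensors of fast release. The calcium-dependent activator proteins for secretion, CAPS1 and CAPS2 (*Cadps*, *Cadps2*), are related to Munc13 and are best known for priming dense-core vesicles, which carry neuropeptides, monoamines and neurotrophins.

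All 20503 nuclei were checked against the deposited totals, and the matrix sums and gene numbers were equal in every nucleus. The first set held 875 to 7213 nuclei a library and 7568267 to 55956635 unique molecular identifiers (UMIs, counts of captured molecules), and the female libraries 1049 to 1615 nuclei and 5119927 to 12891409 UMIs. Neurons had a median of 12586 to 21085 UMIs in the first set and 5666 to 9770 in the female libraries, so levels are given as CPM, the UMIs of a gene per 1000000 UMIs of a sum over nuclei. Of 20457 distinct barcode sequences, 46 occurred in 2 or more libraries. Nuclei were sorted into 8 cell types by the deposited cluster names, and each of the 21 marker genes looked up was highest in the type it marks. CPM are not corrected for gene length, so a level is compared between cell groups for a given gene and not between genes. In sums of whole libraries, fewer nuclei with a gene and less RNA per nucleus cannot be told apart.

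The neurons were split by marker genes as well. Of 10307 neurons with more than 1000 genes, 7515 could be placed by a regional marker with at least 2 UMIs and more UMIs than the other 3 together: 4209 *C1ql3* neurons, 2145 *Adarb2* neurons, 131 *Gad2* neurons and 1030 *Nwd2* neurons. The study used *C1ql3* as a marker of the PVT and *Adarb2* as one of the mediodorsal thalamus, and *Gad2* encodes an enzyme that makes GABA. *Nwd2* neurons also carried the habenular genes *Tac2* (958.3 CPM, against at most 5.29 in the other groups) and *Pou4f1* (78.0 against at most 0.748). Second markers were not all highest in the group they belong to: *Slc17a7*, looked up for *Adarb2* neurons, was 33.5 CPM there and 205.6 in *Nwd2* neurons. Among the *C1ql3* neurons, 2888 were placed in the same way by a subtype marker with at least 1 UMI, giving 502 *Egflam*, 950 *Col12a1*, 1285 *Glis3* and 151 *Npsr1* neurons. Of the second markers of these groups, 5 of 7 were highest where they belong, whereas *Esr1* and *Drd2*, looked up for *Egflam* neurons, were slightly higher in *Col12a1* neurons (29.3 against 22.1 CPM and 30.5 against 27.5 CPM). The groups are therefore called by their marker genes only. A sum needed at least 10 nuclei, which leaves 2 libraries for *Gad2* neurons, 4 for *Npsr1* neurons, 9 for *Egflam* neurons and 10 for each other group. The *Gad2* sum of replicate 4 of the first set went against its name: it had no UMI of *Gad1* and 5.28 CPM of *Slc32a1*, against 121.4 and 133.0 CPM in replicate 3, and 46.4% of its 28 nuclei came from the deposited cluster Neurons (4), against 4.84% of 62 nuclei in replicate 3. Values of *Gad2* neurons are for this reason given by library. The summed level of 19 markers of the other cell types was 159.5 to 288.1 CPM in *C1ql3*, 109.2 to 248.6 in *Adarb2*, 258.9 to 338.2 in *Gad2* and 183.0 to 404.4 in *Nwd2* neurons, and its part in the differences below was not tested.

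*Cadps* (gene ID 27062) lies on the minus strand at chr14:12372560-12823339 and *Cadps2* (320405) on the minus strand at chr6:23262773-23841175 of mm10 (GRCm38). Their promoters are shown because *Nwd2* neurons were low in *Cadps* and high in *Cadps2*, as described below. Each line gives 300 bases from RefSeq (GRCm38.p6), 250 before and 50 after a listed transcript start, on the gene's strand with CG dinucleotides in capitals; the first is chr14:12823030-12823329 and the second chr6:23839372-23839671.
Cadps: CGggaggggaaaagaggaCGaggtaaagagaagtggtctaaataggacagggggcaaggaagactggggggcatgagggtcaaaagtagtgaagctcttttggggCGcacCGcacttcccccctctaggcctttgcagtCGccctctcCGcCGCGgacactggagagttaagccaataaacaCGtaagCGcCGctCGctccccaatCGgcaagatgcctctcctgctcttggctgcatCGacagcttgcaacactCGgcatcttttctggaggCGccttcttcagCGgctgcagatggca
Cadps2: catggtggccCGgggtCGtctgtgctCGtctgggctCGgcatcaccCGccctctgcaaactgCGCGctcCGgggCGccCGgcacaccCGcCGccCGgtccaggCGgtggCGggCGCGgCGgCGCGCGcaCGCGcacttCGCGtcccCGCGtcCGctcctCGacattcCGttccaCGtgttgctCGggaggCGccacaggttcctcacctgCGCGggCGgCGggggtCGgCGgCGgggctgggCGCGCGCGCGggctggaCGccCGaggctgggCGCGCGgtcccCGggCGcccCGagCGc
The *Cadps* window held 17 CG dinucleotides, more than 68.6% of the promoters in the same table, and the *Cadps2* window held 54, more than 99.7% of them, where the median promoter held 7. The same table held a promoter for 8 of the 9 members. The letters GGGCGG, which hold a CG themselves, searched on both strands and found in 35.7% of all promoters, occurred in the *Cadps2* window and not in the *Cadps* window. Neither window held TATAAA, found in 13.6% of promoters, on either strand. These matches describe letters and not binding.

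The other members are *Unc13a* (chr8:71624125-71671774, minus strand), *Unc13b* (chr4:43046193-43264873, plus), *Unc13c* (chr9:73479422-74008155, minus), *Rims1* (chr1:22285972-22806158, minus), *Rims2* (chr15:39198286-39684372, plus), *Syt1* (chr10:108497650-109010980, minus) and *Syt2* (chr1:134646534-134753149, plus). Most of them are long genes with little exon: the span was 451 to 578 kb for *Cadps*, *Cadps2*, *Unc13c*, *Rims1*, *Rims2* and *Syt1*, and exons covered 1.42 to 3.34% of these 6. *Unc13a* was the most compact, at 47.6 kb with 26.7% exon. Other genes on the same strand overlap *Cadps*, *Cadps2*, *Unc13a*, *Unc13c* and *Syt1* in the annotation, and reads in the overlaps could have been counted elsewhere or dropped.

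Across cell types, the CAPS genes were neuronal, but not only neuronal. *Cadps* ranged from 774.1 to 1143 CPM in neurons (median 898.9, 10 libraries), which was above each non-neuronal type of the same library in all 10. The next type was oligodendrocyte precursor cells (OPCs), whose 9 libraries lay between 489.5 and 1073 with a median of 511.9, so that the highest OPC value overlapped the neuronal range. OPCs held 62.9 ± 13.1% (SD, n = 9) of the neuronal level of their own library, oligodendrocytes 25.3 ± 6.1% (n = 10) and astrocytes 7.09 ± 2.91% (n = 10). Free RNA from broken cells can add neuronal UMIs to other nuclei, and its part here was not tested. For comparison, the neuronal genes *Rbfox3*, *Meg3* and *Slc17a6* stood in OPCs at 14.8 ± 17.1, 15.5 ± 18.8 and 26.0 ± 23.6% of neurons (SD, n = 9). Their highest values in an OPC library were 57.6, 63.05 and 85.3%.

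With all neurons of a library summed, *Cadps2* was highest in ependymal cells. This does not hold for every cluster of neurons. Neurons (4) and (6) had means of 1274 and 1283 CPM, above every ependymal library, while Neurons (8) had 6.95. Ependymal cells, which line the ventricle, had 281.0 to 461.0 CPM with a median of 349.2 (9 libraries), and neurons had 161.4 to 401.3 with a median of 285.2. Ependymal cells exceeded the neurons of their own library in 8 of 9 libraries, by a median of 1.36-fold (range 0.700 to 2.10). After thinning every nucleus to 2000 UMIs, which makes shares comparable between depths, 48.2 ± 6.2% of ependymal nuclei had a *Cadps2* UMI (n = 9) against 8.86 ± 3.15% of oligodendrocyte nuclei (n = 10). Nuclei below 2000 UMIs were left out, which were 202 neurons, 171 ependymal cells, 862 oligodendrocytes, 1011 astrocytes and 98 OPCs. Without thinning the shares were 51.8% and 11.1%, at median depths of 2851 and 2312 UMIs. Of the ependymal nuclei, 38.2 ± 6.8% had UMIs of *Cadps2* without *Cadps* and 10.8 ± 9.4% those of *Cadps* alone.

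The Munc13 genes did not share a pattern. *Unc13a*, the main Munc13 of excitatory synapses, was 107.5 to 153.8 CPM in neurons (median 131.3), above all 63 sums of the other types, of which the highest was 104.4 CPM in OPCs. *Unc13b* was 138.3 to 171.6 CPM in neurons (median 146.9) but 116.2 to 311.6 in endothelial cells (median 241.3, 7 libraries), and endothelial cells were above neurons in 6 of 7 libraries. Fibroblasts had 86.4 to 327.7 CPM (median 168.0) and were above neurons in 5 of 8 libraries. The endothelial and fibroblast values of *Unc13b* rest on 143 and 76 UMIs in all. *Unc13c*, encoding Munc13-3, was lower in the neurons summed together than in several other types. These neuron sums had 68.2 to 117.6 CPM (median 80.2), astrocytes 179.7 to 391.6 (median 282.1), OPCs 232.0 to 627.2 (median 488.9) and endothelial cells 172.6 to 514.1 (median 271.0). Astrocytes and OPCs lay wholly above the neuron sums, with no overlap, by a median of 3.35-fold (1.69 to 5.19, 10 libraries) and 5.26-fold (3.40 to 8.42, 9 libraries). The endothelial values, 3.22-fold higher at the median, also lay above every neuron sum, but rest on 212 UMIs in all. Single clusters of neurons were not all lower. Neurons (3) had 166.8 to 265.5 CPM and Neurons (5) 127.4 to 318.1, which overlapped the ranges of these 3 types. In nuclei thinned to 2000 UMIs, 57.1 ± 13.5% of OPCs and 32.2 ± 3.3% of astrocytes had an *Unc13c* UMI, against 12.0 ± 1.8% of neurons and 2.94 ± 2.18% of oligodendrocytes. The corresponding unthinned shares were 72.6, 36.7, 30.5 and 3.37%, at median depths of 3606, 2991, 11138 and 2312 UMIs.

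Both RIM genes and *Syt1* were mainly neuronal. *Rims1* was 1600 to 2229 CPM in neurons (median 1850) and reached 1676 CPM in a single OPC library, where the other 8 libraries were lower; OPCs held 46.7 ± 12.3% of the neuronal level and astrocytes 4.60 ± 3.09%. *Rims2* was 1328 to 1854 CPM in neurons (median 1606). OPCs had 507.3 to 1601 (median 635.6), which overlapped the neuronal range, at 44.4 ± 17.6% of neurons (n = 9). The mean astrocyte level of 27.8 ± 5.3% of neurons was above that of *Rims1*. It was also above the means of 2.57 to 19.3% at which *Rbfox3*, *Meg3* and *Slc17a6* stood in astrocytes. *Slc17a6* reached 38.2% there, however, within the *Rims2* range of 22.1 to 39.6%. *Syt1* was 1562 to 1864 CPM in neurons (median 1755), and no sum of another type reached that range, the highest being 832.4 CPM in endothelial cells. In OPCs *Syt1* stood at 14.1 ± 12.7% of neurons, against means of 14.8 to 26.0% for the 3 reference genes. *Syt2* was barely counted, with 480 UMIs in all neurons and 2.05 to 12.9 CPM (median 4.02), and 38 of the 63 sums of the other types were at 0, where 3 UMIs, the count that a 0 still allows, would be at least 2.02 CPM. These floors cover counting error only, and the ± of a share is its SD between libraries.

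On the log2(CPM + 1) scale and within each library, neurons stood above the mean of the other types by 3.12 ± 0.95 (SD, n = 10) for *Cadps*, 2.17 ± 0.55 for *Cadps2*, 3.25 ± 0.92 for *Unc13a*, 1.70 ± 0.48 for *Unc13b*, 3.38 ± 0.74 for *Rims1*, 2.71 ± 0.77 for *Rims2* and 3.35 ± 0.77 for *Syt1*, each higher in 10 of 10 libraries. *Unc13c* was the exception, at 0.03 ± 0.65, higher in 6 and lower in 4. The size of the *Syt2* difference, 1.49 ± 0.93, depended on the pseudocount and was 0.33 with 10 CPM added. The difference had the same sign in every library and a mean over 0.5 for 8 of the 9 members and for 45.6% of the 9499 genes tested. Among the 9 members, *Unc13a* and *Syt1* had every neuronal library above every sum of the other types. By the same rule 1.45% of the 9499 genes tested did so; the members were chosen on this contrast, and nothing is read from either share.

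**Figure D1:**
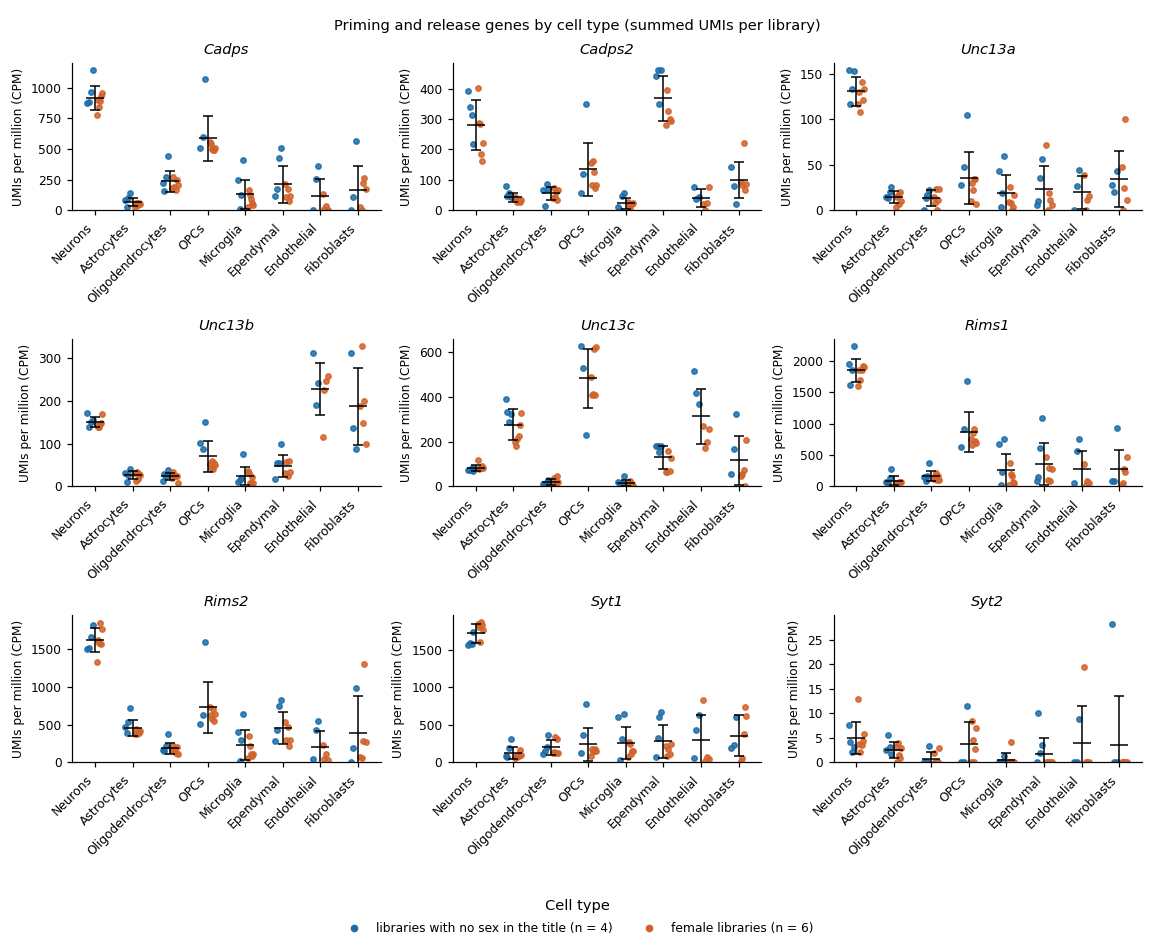
Levels of the 9 genes (CPM of a library sum, vertical axes from 0) in the 8 cell types, with 1 point per library, colour for the set of libraries, and the mean with its SD in black (bars cut at 0). With all neurons of a library summed, *Unc13c* is highest in OPCs, *Cadps2* in ependymal cells and *Unc13b* in endothelial cells. *Syt1* in neurons, from 1562 to 1864 CPM, is clear of every other type.

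Among the regional groups with 10 libraries, *Cadps* was lowest and *Cadps2* highest in *Nwd2* neurons. *Cadps* was 838.1 to 1184 CPM in *C1ql3* neurons (median 973.5), 983.8 to 1182 in *Adarb2* neurons (median 1068) and 174.6 to 448.3 in *Nwd2* neurons (median 220.1). The highest *Nwd2* library was therefore below the lowest *C1ql3* or *Adarb2* library, and *C1ql3* and *Adarb2* neurons overlapped. Within a library *Adarb2* neurons exceeded *Nwd2* neurons by a median of 4.71-fold (2.64 to 5.94) and *C1ql3* neurons did so by 4.33-fold (2.64 to 6.05), in 10 of 10 libraries each. The *Gad2* values were 806.4 CPM in replicate 3 and 1036 in replicate 4 of the first set.

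*Cadps2* was 882.4 to 1321 CPM in *Nwd2* neurons (median 1031), 183.5 to 368.5 in *C1ql3* neurons (median 262.3) and 9.95 to 38.1 in *Adarb2* neurons (median 23.6), without overlap between any of them. *Nwd2* neurons stood 4.13-fold above *C1ql3* neurons (2.80 to 5.49) and these 10.2-fold above *Adarb2* neurons (4.81 to 36.5) at the median, again in all 10 libraries. Of the UMIs of this pair of genes, *Cadps2* took 81.5 ± 4.9% in *Nwd2* neurons, 21.5 ± 4.8% in *C1ql3* neurons and 2.14 ± 0.88% in *Adarb2* neurons (SD, n = 10 each). The *Gad2* sum with *Gad1* held 349.7 CPM and the sum without it 1099.

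*Unc13a* and *Unc13b* varied less among the regional groups than *Unc13c* did. *Unc13a* medians were 118.2 CPM in *C1ql3*, 139.5 in *Adarb2* and 121.7 in *Nwd2* neurons, and the ranges overlapped. *Unc13b* was higher in *Nwd2* neurons, at 162.9 to 252.7 CPM (median 188.8), than in the *C1ql3* neurons (142.0 to 177.8, median 150.6) or the *Adarb2* neurons (109.4 to 153.1, median 131.0) of every library, although the *Nwd2* and *C1ql3* ranges overlapped. *Unc13c* was the Munc13 gene with the widest spread: *Adarb2* neurons had 120.7 to 211.2 CPM (median 150.4), *C1ql3* neurons 35.4 to 54.4 (median 43.7) and *Nwd2* neurons 30.8 to 114.5 (median 45.4). Each *Adarb2* value was above every *C1ql3* and *Nwd2* value, and the excess over *C1ql3* neurons was 3.65-fold at the median (2.76 to 4.77). The *Gad2* sums held 247.1 CPM with and 76.6 without *Gad1*.

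Among the groups with 10 libraries, the RIM genes were lowest in *Nwd2* neurons. *Rims1* was 844.7 to 1340 CPM there (median 1013), 1627 to 2180 in *C1ql3* neurons (median 1848) and 2046 to 2586 in *Adarb2* neurons (median 2250). *Rims2* was 637.1 to 1186 CPM in *Nwd2* neurons (median 767.5), 1513 to 1803 in *C1ql3* neurons (median 1642) and 1761 to 2237 in *Adarb2* neurons (median 1907). For both genes no *Nwd2* library reached a *C1ql3* or *Adarb2* library, and the *C1ql3* and *Adarb2* ranges met at their edges. Relative to *Nwd2* neurons, *Adarb2* neurons were 2.19-fold higher in *Rims1* (1.93 to 2.62) and 2.45-fold higher in *Rims2* (1.72 to 2.99). The *Gad2* sums held 966.8 CPM of *Rims1* and 1149 of *Rims2* with *Gad1*, and 1715 and 1770 without it.

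*Syt1* followed another order. Its level was 1003 to 1270 CPM in *C1ql3* neurons (median 1121), 1563 to 2246 in *Nwd2* neurons (median 1842) and 2470 to 3017 in *Adarb2* neurons (median 2744), and no ranges overlapped. *C1ql3* neurons, which had high *Cadps* and RIM levels, were thus the lowest in this calcium sensor, 2.45-fold (2.17 to 2.81) below *Adarb2* neurons and 1.59-fold (1.36 to 2.16) below *Nwd2* neurons at the median. The *Gad2* sums were far apart, at 3055 CPM with *Gad1* and 1173 without it. *Syt2* was 1.01 to 8.30 CPM in *C1ql3*, 0 to 6.93 in *Adarb2* and 0 to 24.9 in *Nwd2* neurons, on 152, 75 and 114 UMIs, and the ranges overlapped. With *Gad2* neurons set aside, 6 of the 9 members had a regional group wholly above or below the others (*Cadps*, *Cadps2*, *Unc13c*, *Rims1*, *Rims2* and *Syt1*), and 11.4% of the 12928 genes tested had the same; the choice of members used these groups, so nothing is read from it. A difference of a group from the mean of the others that had the same sign in every library and a mean over 0.5 on the log2 scale occurred in 16 of 36 pairs of a member and a group, with *Gad2* neurons included, and in 20.1% of the pairs of all genes tested, from which nothing is read either.

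**Figure D2:**
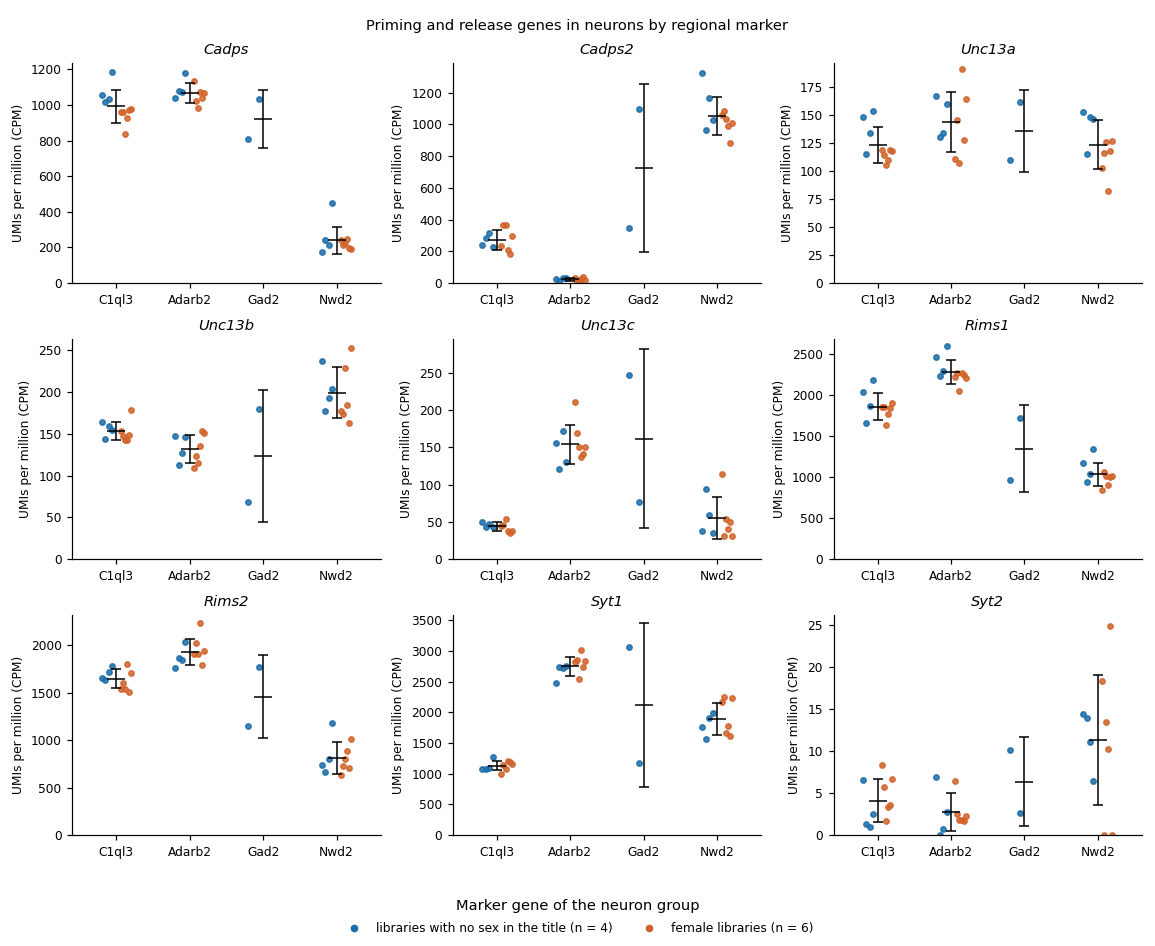
Levels of the 9 genes (CPM, vertical axes from 0) in neurons grouped by *C1ql3*, *Adarb2*, *Gad2* or *Nwd2*, 1 point per library, coloured by set, with the mean and SD in black. *Nwd2* neurons are low in *Cadps*, *Rims1* and *Rims2* and high in *Cadps2*, *C1ql3* neurons are lowest in *Syt1* among the groups with 10 libraries, and the 2 *Gad2* points of several genes lie far apart.

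The 8 neuron clusters that the study deposited gave a finer view that does not use the marker gates. *Nwd2* neurons came mostly from Neurons (6), which held 83.0% of them, *Adarb2* neurons from Neurons (3), (7) and (8) (50.1, 20.4 and 18.1%), and *C1ql3* neurons from Neurons (1), (2) and (4) (52.8, 25.1 and 17.1%). *Cadps* was 660.1 to 1275 CPM over all libraries of the 7 other clusters and 19.6 to 199.7 in Neurons (6) (median 87.8). *Cadps2* fell into 3 levels: Neurons (4) and (6) had means of 1274 ± 193 and 1283 ± 128 CPM, Neurons (2) and (5) 176.3 ± 60.8 and 169.4 ± 37.8, and Neurons (1), (3), (7) and (8) between 6.95 ± 6.47 and 18.0 ± 11.3 (SD, n = 10 each). In the order of the 8 means, the steps from the first to the second and from the second to the last of these levels were without overlap, whereas neighbours within a level overlapped.

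Neurons (4) and (6) shared a high *Cadps2* level and differed in *Cadps*, which was 668.4 to 958.9 CPM in Neurons (4). After thinning to 2000 UMIs, 63.6 ± 8.9% of the nuclei of Neurons (4) had UMIs of both genes, 12.4 ± 4.2% of *Cadps* alone and 4.03 ± 3.26% of neither. In Neurons (6) the shares were 9.49 ± 6.04% with both, 77.4 ± 4.8% with *Cadps2* alone and 1.74 ± 1.80% with *Cadps* alone. In Neurons (3) 82.9 ± 4.9% had *Cadps* alone and 2.40 ± 1.66% had both. For comparison, 28.4 ± 9.8% of oligodendrocyte nuclei had a *Cadps* UMI and 8.86% one of *Cadps2*. The *Cadps* share of 11.2 ± 6.3% in Neurons (6) (25.6% unthinned) and the *Cadps2* shares of 0.835 to 3.27% in Neurons (1), (3), (7) and (8) (6.95 to 9.60% unthinned) lay within or below the range of the non-neuronal types named next. The *Cadps* shares in astrocytes, oligodendrocytes, microglia, endothelial cells, ependymal cells and fibroblasts were 10.6 to 28.4%, and the *Cadps2* shares in astrocytes, oligodendrocytes, microglia, endothelial cells and fibroblasts 2.34 to 10.2%, so no expression is read from those of the neurons. Unthinned, the *Cadps* share of Neurons (6) was above the 16.4% of astrocytes, whose median depth was 2991 UMIs. Unthinned, 94.9 and 97.1% of the nuclei of Neurons (4) had a UMI of *Cadps* and *Cadps2*, and 93.7% of Neurons (6) one of *Cadps2*. The median depth was 7033 UMIs in Neurons (6), 13913 in Neurons (3) and 2312 in oligodendrocytes.

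**Figure D3:**
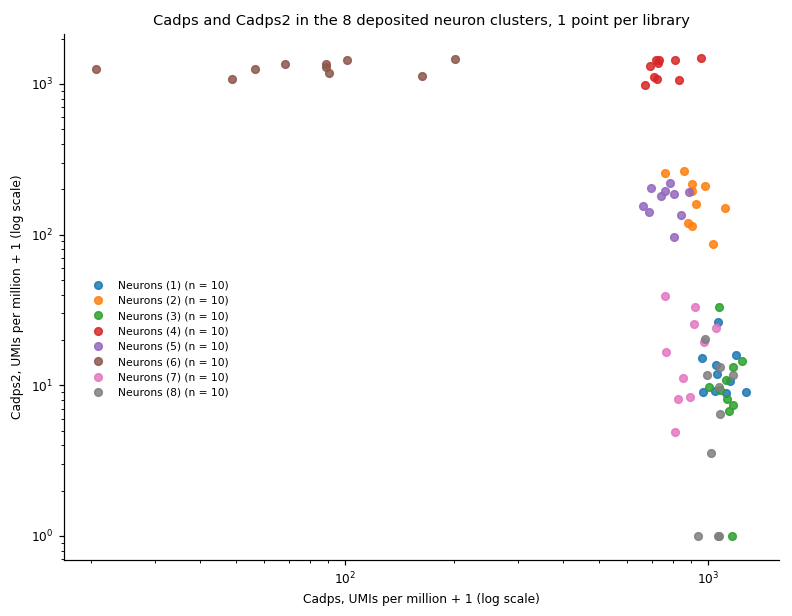
*Cadps* against *Cadps2* in the 8 deposited neuron clusters (both axes CPM plus 1, log scale), 1 point for each of 10 libraries, coloured by cluster. Neurons (6) stands apart at high *Cadps2* and low *Cadps*, Neurons (4) is high in both, and Neurons (1), (3), (7) and (8) have *Cadps* with *Cadps2* means of at most 18.0 CPM.

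The remaining members ordered the clusters differently. *Unc13c* was highest in Neurons (3) and (5) (204.8 ± 27.9 and 193.1 ± 70.0 CPM) and lowest in Neurons (4) (10.2 ± 5.0), a cluster in which *Rims2* was 1789 ± 148 CPM, close to the 1864 ± 122 of Neurons (7). Within libraries, Neurons (3) exceeded Neurons (4) in *Unc13c* by a median of 20.9-fold (9.60 to 118.4). *Syt1* went from 2965 ± 249 CPM in Neurons (3) to 832.6 ± 85.7 in Neurons (4), a median within-library ratio of 3.65 (2.76 to 4.03), but all neighbours in the order of 8 overlapped. *Rims1* ran from 2325 ± 171 CPM in Neurons (3) to 940.3 ± 142.9 in Neurons (6). Neighbours in this order also overlapped throughout. *Rims2* was lowest in Neurons (6), at 592.2 ± 115.6 CPM, without overlap with the next cluster. *Unc13a* differed least, with cluster means between 107.7 and 152.4 CPM and overlap between all neighbours, and *Unc13b* was between 124.3 and 217.9 CPM, highest in Neurons (6).

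Within the *C1ql3* neurons, *Cadps2* set *Glis3* neurons apart from the other subtype groups and *Cadps* did not. The *Cadps2* ranges of *Egflam* and *Col12a1* neurons overlapped. *Cadps2* was 564.3 to 995.4 CPM in *Glis3* neurons (median 767.5), 11.9 to 47.8 in *Egflam* neurons (median 16.7, 9 libraries) and 0 to 32.6 in *Col12a1* neurons (median 8.78), where the 1 library at 0 would allow 9.42 CPM. The 4 *Npsr1* values were 397.1 and 271.0 CPM in replicates 3 and 4 of the first set and 152.3 and 346.6 in female replicates 5 and 6. *Glis3* neurons were thus above every other group, *Npsr1* neurons in between and the other groups near 0. The ratio of *Glis3* to *Egflam* neurons was 48.3 at the median (11.8 to 64.6, 9 libraries) and that to *Npsr1* neurons 2.64 (1.98 to 5.04, 4 libraries). These groups mix clusters: 52.3, 33.5 and 11.5% of *Glis3* neurons came from Neurons (4), (2) and (1), whose *Cadps2* means were 1274, 176.3 and 12.0 CPM. Of *Npsr1* neurons, 64.2% came from Neurons (2) and 16.6% from Neurons (4). *Cadps* was 673.6 to 1056 CPM in *Glis3* neurons (median 848.8), 803.2 to 1304 in *Egflam* neurons (median 1151) and 866.8 to 1220 in *Col12a1* neurons (median 1026). The ranges overlapped, yet *Egflam* neurons exceeded *Glis3* neurons by 1.13 to 1.56-fold in 9 of 9 libraries. At 2000 UMIs, 44.6 ± 7.6% of *Glis3* nuclei had UMIs of both CAPS genes and 85.5 ± 5.4% of *Col12a1* nuclei had *Cadps* alone.

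Among the 4 subtype groups, *Unc13c* was highest in *Egflam* neurons, with 69.0 to 180.1 CPM (median 83.3). It was 6.28 to 67.0 in *Col12a1* neurons (median 22.6), 3.56 to 43.6 in *Glis3* neurons (median 28.7) and 20.8 to 38.0 in the 4 *Npsr1* sums. The *C1ql3* neurons in no subtype group had 30.57 to 73.65 CPM (median 50.7), which overlapped the *Egflam* range. The lowest *Egflam* library was just above the highest *Col12a1* library, female replicate 4. At 2000 UMIs 15.3 ± 9.5% of *Egflam* nuclei had an *Unc13c* UMI, against 3.77 ± 2.34% of *Col12a1* nuclei and the 2.94% of oligodendrocytes; unthinned, these shares were 46.8, 16.8 and 3.37% at median depths of 14434, 13226 and 2312 UMIs. *Unc13a* medians lay between 108.1 and 131.4 CPM in the 4 groups with overlapping ranges. *Unc13b* was 180.0 to 225.6 CPM in *Npsr1* neurons (median 208.3) and 91.7 to 172.7 in *Col12a1* neurons (median 140.6), which did not overlap, with *Glis3* and *Egflam* neurons spanning the gap.

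*Rims1* was 1360 to 1932 CPM in *Glis3* neurons (median 1525) and 1720 to 2435 in *Egflam* neurons (median 2113), higher in the latter in 9 of 9 libraries by a median of 1.32-fold. *Rims2* was nearly level, with medians of 1515 CPM in *Col12a1* to 1780 in *Glis3* neurons. *Syt1* was 876.0 to 1136 CPM in *Glis3* neurons (median 937.0) and 1096 to 1586 in *Col12a1* neurons (median 1318), higher in the latter in 10 of 10 libraries by a median of 1.39-fold. The gap in *Syt1* between *C1ql3* and *Adarb2* neurons was wider than those within the *C1ql3* neurons, where the group medians were 937.0 to 1318 CPM against 2744 in *Adarb2* neurons. *Syt2* gave 111 UMIs in all 4 groups. Among the 9 members, *Cadps2* and *Unc13c* had a subtype group wholly above the others, where 0.874% of the 9267 genes tested had a group above or below the others; the members were chosen with these groups known, and nothing is read from the difference. By the rule of same sign and a mean over 0.5, 5 of 36 pairs of a member and a subtype group passed, and 6.41% of the pairs of all genes tested.

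**Figure D4:**
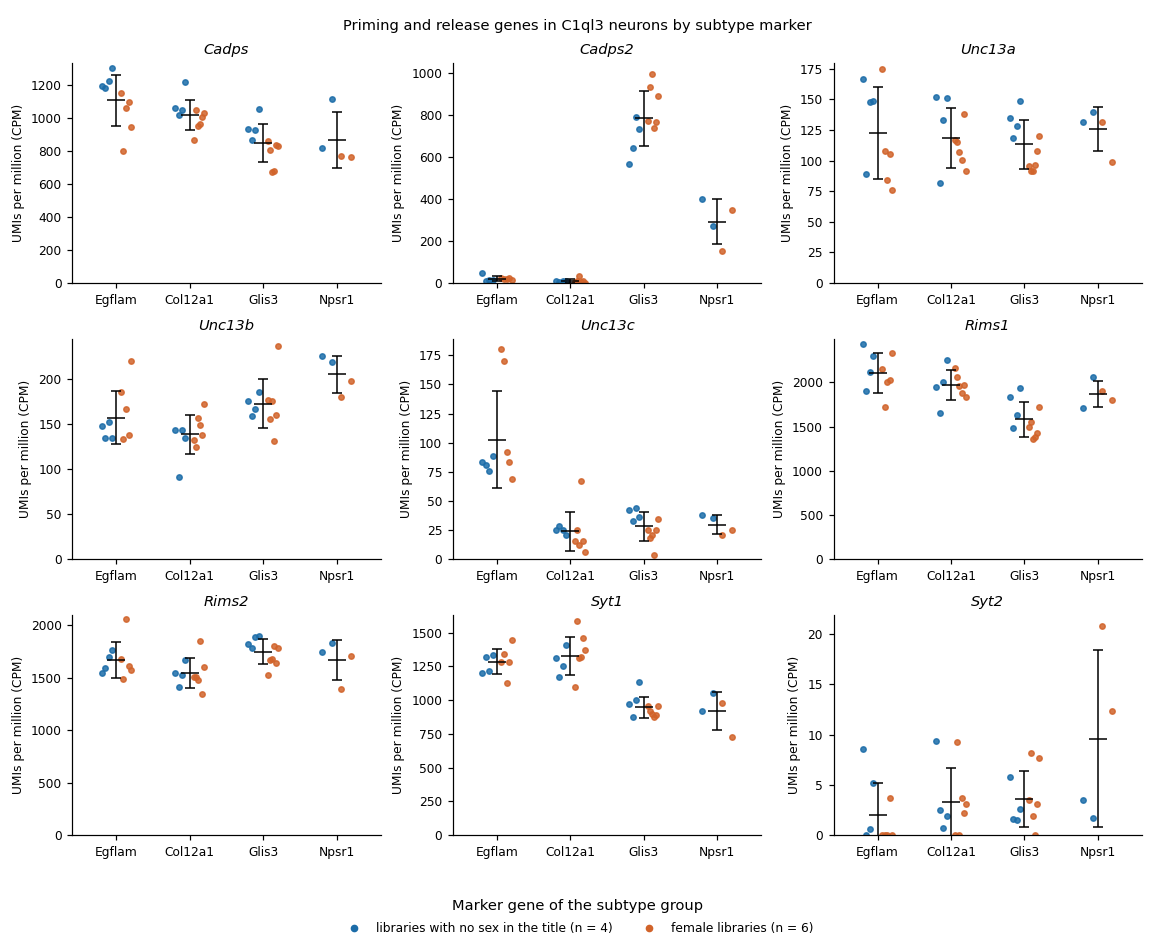
Levels of the 9 genes (CPM, vertical axes from 0) in *C1ql3* neurons grouped by *Egflam*, *Col12a1*, *Glis3* or *Npsr1*, 1 point per library, coloured by set, with the mean and SD in black (bars cut at 0). *Cadps2* is 564.3 to 995.4 CPM in *Glis3* neurons and at most 47.8 in *Egflam* and *Col12a1* neurons, while *Unc13a* and *Rims2* overlap in all 4 groups.

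Over 55 sums (the *Adarb2*, *Gad2* and *Nwd2* neurons and the 4 subtype groups, by library, centred within the library on the log2 scale) *Cadps* ran with the RIM genes, at a Pearson's r of 0.93 with *Rims2* and 0.89 with *Rims1*, and against *Cadps2*, at -0.68. *Rims1* and *Cadps2* stood at -0.78, and *Syt1* with *Unc13c* at 0.65. *Syt1* was near 0 with *Rims1* (0.01). The 55 include the *Nwd2* sums, low in *Cadps* and both RIM genes. Against the mean of the other subtype groups, *Glis3* neurons were lower in *Cadps* (-0.27, 10 of 10 libraries) and *Rims1* (-0.35, 10 of 10) but higher in *Rims2* (0.13, 9 of 10). *Col12a1* neurons were higher in *Cadps* (0.14, 10 of 10) and *Rims1* (0.14, 7 of 10) and lower in *Rims2* (-0.13, 10 of 10). The *Rims2* difference was 0.007 in *Egflam* and 0.001 in *Npsr1* neurons. These values are descriptions: the sums of a library share its nuclei preparation and depth, and the groups were used to choose the genes. Among 7249 genes of at least 20 CPM, the ones most like *Cadps* were *Gabra4* (r = 0.98), which encodes a GABA-A receptor subunit, *Kcnq3* (0.97), a potassium channel subunit, and *Cit* (0.97). Those most like *Cadps2* were *Pbx3* (0.94), a homeobox transcription factor, *Asic2* (0.92), an acid-sensing channel, and *Gm11418* (0.92). For *Rims1* they were *Shisa9*, *Kcnip4* and *Rora* (0.98, 0.97 and 0.97), for *Rims2* *Frmd4a*, *Fgf12* and *Cdh2* (0.97, 0.96 and 0.96) and for *Syt1* *Il1rapl1*, *Ctnnd2* and *Tmeff2* (0.91, 0.90 and 0.89). The Munc13 genes had no match as close. The highest r was 0.68 for *Unc13a* (*Smg1*, then *Polb* and *R3hdm2* at 0.66 and 0.65), 0.75 for *Unc13b* (*Nek7*, then *Ctnnbip1* and *Nkain2* at 0.72 and 0.71) and 0.74 for *Unc13c* (*Rgs8*, then *Etl4* and *Il1rapl1* at 0.70 and 0.69). *Syt2* was under 20 CPM and was not matched.

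Whether these genes differ between the first set and the female libraries was not used to choose them and was tested. The sums were taken over all 10410 neurons, with no limit on the number of genes. None of the 9 members was called by edgeR's quasi-likelihood test at an adjusted p under 0.05, where 4.83% of the 13999 genes tested were called (676; 2.79% higher and 2.04% lower in female libraries), and none had an unadjusted p under 0.05; with DESeq2 none was called either. A gene that was not called is not thereby shown to be equal in the sets. The largest difference on the log2 scale was that of *Cadps2*, at -0.38 ± 0.23 (SE) in female relative to first-set libraries (adjusted p = 0.37). Its values were 393.5, 338.6, 312.2 and 219.3 CPM in replicates 1 to 4 of the first set and 161.4 to 401.3 in the 6 female libraries (median 252.1), so the groups overlapped. The 2 highest values were those of replicate 1 of either set, where *Nwd2* neurons made up 27.4 and 30.1% of the neurons against 2.69 to 20.1% in the other 8 libraries. Within the *C1ql3* neurons, *Cadps2* was 224.8 to 312.7 CPM in the first set (median 262.3) and 183.5 to 368.5 in female libraries (median 265.4), a log2 difference of -0.01.

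*Cadps* was 872.8, 885.4, 965.0 and 1143 CPM in the first set and 774.1 to 957.8 in female libraries (median 898.9), with a log2 difference of -0.22 ± 0.12 (edgeR, adjusted p = 0.33). The fit of the *C1ql3* neurons alone was added after the data were seen, and in it edgeR called 619 of 12201 genes. In these neurons the *Cadps* values did not overlap, at 1019 to 1184 CPM (median 1046) against 838.1 to 975.5 (median 958.7). How many of all genes had no overlap was not counted, so nothing is read from it. The *Cadps* log2 difference of -0.27 was not called by edgeR (adjusted p = 0.11, unadjusted 0.0095). *Unc13a* was 116.9 to 153.8 CPM in the first set (median 143.1) and 107.5 to 140.7 in female libraries (median 125.1), a log2 difference of -0.25 ± 0.13 (edgeR, adjusted p = 0.28). In the *C1ql3* neurons its values of 115.1 to 153.1 CPM (median 140.5) and 105.3 to 118.9 (median 115.7) overlapped, and the log2 difference of -0.35 was not called either (edgeR, adjusted p = 0.084; unadjusted 0.0060). The other members differed by -0.18 ± 0.13 (*Rims1*), -0.16 ± 0.10 (*Unc13b*), -0.09 ± 0.13 (*Rims2*), 0.05 ± 0.10 (*Syt1*), 0.15 ± 0.11 (*Unc13c*) and 0.28 ± 0.48 (*Syt2*), with edgeR's adjusted p between 0.41 and 0.78 and overlapping values in each case. Over all 18 settings tried, the lowest adjusted p of any member was 0.063, for *Unc13a* without replicate 2 of the first set. Leaving out that library also raised the number of genes called from 676 to 2137. The sets differ in depth and in whether mitochondrial UMIs were kept as well as in the sex listed, and these cannot be told apart.

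**Figure D5:**
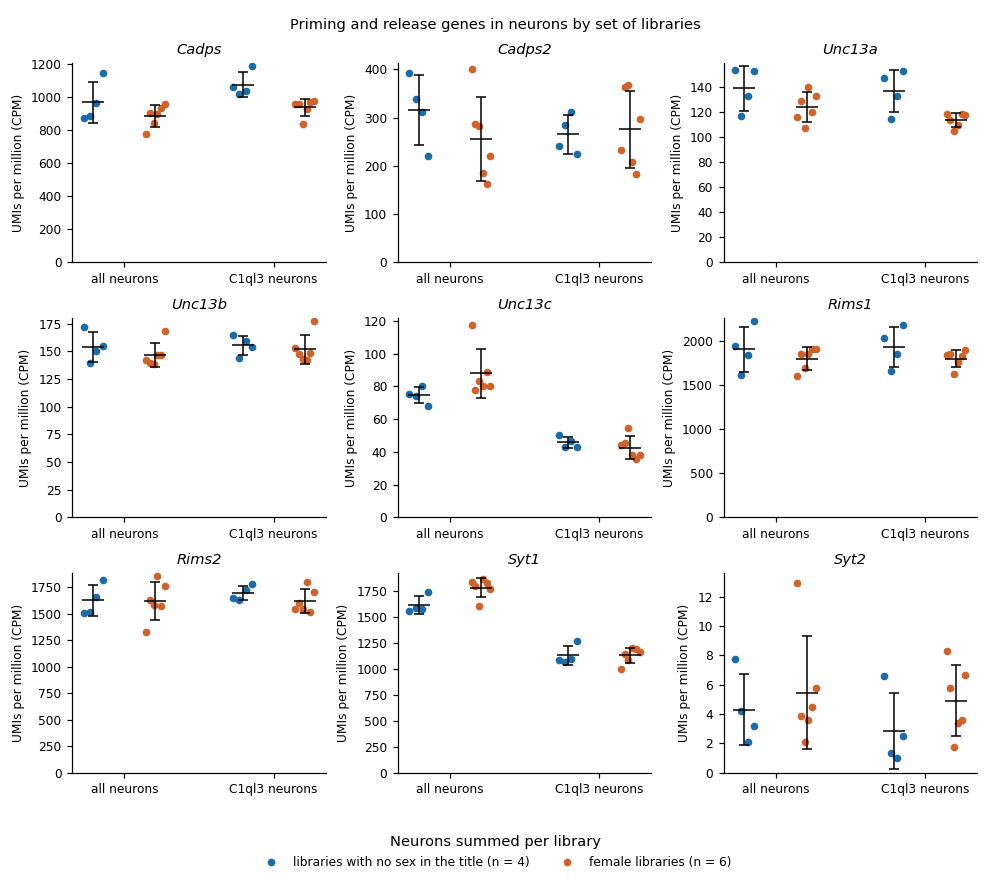
Levels of the 9 genes (CPM, vertical axes from 0) in all neurons and in *C1ql3* neurons, 1 point per library, for the 4 libraries with no sex in the title and the 6 female libraries, with the mean and SD in black. The points of the sets overlap for every gene in all neurons, and in *C1ql3* neurons *Cadps* is the gene of the 9 whose points do not. How many genes outside the 9 share this was not counted.

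The other parts of the release machinery were read from a list of 63 genes in 7 classes, none of them a member. The list and the groups were chosen with earlier results of these data known, and the groups were set from these same counts. The p-values here and in the regional and subtype comparisons below are therefore descriptions and not an independent test. Nothing is read from the shares of the list set beside those of all genes. In neurons against the other cell types 53 of them passed the filter on low counts and 45 were called by edgeR (adjusted p under 0.05 and a log2 fold over 0.5), 44 higher and 1 lower. Of all 9499 genes tested 57.1% were called, 29.5% as higher. The median log2 difference was 1.97 over the list and 0.01 over all genes tested. All 12 active zone genes were called, as were 9 of the 11 other synaptotagmins tested, 7 of 7 vesicle proteins, 8 of 11 genes of SNAREs and their handling, 4 of 5 Rab3 and C2 adaptors and 5 of 7 dense-core vesicle genes; no complexin passed the filter. *Rimbp2*, which links RIM to calcium channels, had the largest rise at 3.31 ± 0.16 (SE), from 27.4 to 128.4 CPM in the means of the other types to 382.0 ± 65.3 in neurons (SD, n = 10). *Erc2*, a scaffold of the active zone, rose by 3.18 ± 0.18 and *Pcsk2*, which cleaves prohormones in dense-core vesicles, by 3.16 ± 0.17. *Syt9*, *Sv2b* and *Stxbp5l* rose by 3.12 ± 0.14, 3.12 ± 0.14 and 3.01 ± 0.15. Their adjusted p were between 2.69e-32 and 4.56e-26 by edgeR. *Vamp2*, the vesicle SNARE, was the gene called lower, with a log2 difference of -0.63 ± 0.11 (edgeR, adjusted p = 7.67e-07), and was named after its value was seen. No gene of the list was called lower without replicate 1 or without replicate 2 of the first set (46 called, all higher, in either case) or without the filter on low counts (55 called, all higher).

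Among the 4 regional groups 61 genes of the list were tested and 43 were called by edgeR as different (adjusted p under 0.05 and a range over 0.5), against 57.5% of all 12928 genes tested. Without the *Gad2* neurons, whose 2 sums differ, 38 of 61 were called, against 51.5% of the 11085 genes in that fit. All 7 Rab3 and C2 adaptors tested were called, with 10 of 13 other synaptotagmins and 4 of 8 dense-core vesicle genes. *Syt6* was 236.1 to 424.8 CPM in *Nwd2* neurons and at most 6.63 in *C1ql3* and *Adarb2* neurons, and the calcium sensor *Syt9* was 1201 to 2222 CPM in *Nwd2*, 180.9 to 287.6 in *Adarb2* and 26.0 to 52.9 in *C1ql3* neurons. *Synpr*, a vesicle membrane protein, was 618.5 ± 163.8 CPM in *Nwd2* against 40.2 to 78.6 in *C1ql3* and 6.63 to 41.2 in *Adarb2* neurons. The adjusted p of these 3 were between 9.86e-29 and 1.85e-22. *Sv2c* and *Pcsk1* were also highest among the groups with 10 libraries in *Nwd2* neurons, at 61.2 ± 18.5 and 64.1 ± 31.7 CPM, and *Cplx2* was 29.1 and 82.4 CPM in the *Gad2* sums and 21.3 ± 13.6 in *Nwd2* neurons (edgeR, adjusted p between 1.51e-20 and 6.82e-13).

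Among the 4 subtype groups 58 genes of the list were tested and 16 were called by edgeR, against 20.3% of all 9267 genes tested; the median range over the list was 0.34 on the log2 scale and over all genes 0.33. The calls included 5 of 6 Rab3 and C2 adaptors and 1 of 12 active zone genes. Of the 16, 8 were highest in *Col12a1* neurons, 5 in *Glis3* neurons, 3 in *Npsr1* neurons and 0 in *Egflam* neurons. Genes highest in *Glis3* neurons were *Cplx2* (27.2 ± 11.2 CPM against 1.63 ± 1.90 in *Egflam* neurons), *Sv2c* (57.4 ± 12.8 against 6.61 ± 4.46 in *Col12a1* neurons) and *Syt10* (208.4 ± 47.4 against 38.4 ± 9.3 in *Col12a1* neurons). *Syt17*, *Synpr* and *Pcsk1* were highest in *Col12a1* neurons, at 193.8 ± 34.0, 122.1 ± 26.2 and 21.8 ± 10.9 CPM against 62.2 ± 32.5, 27.7 ± 10.0 and 2.60 ± 3.30 in *Glis3* neurons. Except for *Sv2c*, the highest group overlapped another over libraries. *Syt17* was 137.6 to 256.2 CPM in *Col12a1* and 82.7 to 204.2 in *Egflam* neurons. *Syt10* was 127.7 to 309.8 CPM in *Glis3* and 82.2 to 173.1 in *Npsr1* neurons. The adjusted p of all these named genes by edgeR were between 2.89e-28 and 2.11e-11.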

How the data were processed

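Nuclei were captured with 10x Genomics Chromium 3' chemistry. Reads were mapped and counted by the authors in Cell Ranger (6.1.1, with build mm10, in the submitters' processing notes, whereas the methods name an earlier version), and the authors removed nuclei with few genes or much mitochondrial RNA and clusters taken for doublets, and deposited raw UMI counts as whole numbers, genes by nuclei. The annotation was not given in the sources used here. The deposited counts had no nucleus under 278 genes. The percent of mitochondrial UMIs was computed by the authors (highest 4.99). Mitochondrial genes hold 0 UMIs in the first set and 562659 in the female libraries and were left out of all totals. All nuclei of the first set carry a singlet call and the female nuclei carry none; no doublets were called anew. Cell types are the deposited cluster names, and 20 metadata columns of values per nucleus were not used. Of the marker checks, 1 is not reported here.

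Counts were summed per library and group (10 or more nuclei), and levels are CPM of the sum. A difference on the log2(CPM + 1) scale is the group minus the mean of the other groups of its library that had a sum. Sums of 17513 genes with at least 20 UMIs in each set entered edgeR 4.0.16 under R 4.3.3 (filterByExpr, TMM, glmQLFit, glmQLFTest, Benjamini-Hochberg), with the library as a term where groups of a library were compared; SE is the log2 fold divided by the square root of F. The fits were tested on simulated counts, drawn for each gene from its mean level and the size of each sum. No library effect was simulated, and no group difference outside the changed genes, so the check does not cover these. Between the sets, 7 of 50 genes changed 1.5-fold were called, 28 of 50 changed 2-fold, 49 of 50 changed 3-fold and 45 of 50 changed 4-fold. Of the genes left unchanged, 9 were called between the sets, 9 for cell types, 13 for regional groups and 17 for subtype groups. The simulations held 13999, 9499, 12928 and 9267 genes in this order, changed genes included. Of 50 genes changed 1.5-fold, 40 were called for cell types, 28 for regional groups and 41 for subtype groups. Levels, shares and figures were made in Python 3.11.15 (numpy 2.4.6, pandas 2.3.3, matplotlib 3.10.9).

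The 9 members, the gene lists and the groups were chosen with earlier results of these data known. All members are named; of the 63 genes of the list, the 6 called genes with the largest fold or range in each comparison are named, and likeness was ranked over the sums without the *C1ql3* group as a whole and without the marker genes. Alternatives were RLE scaling, no filter, DESeq2 1.42.0, no library term, other gates, deeper neurons, another pseudocount, thinning, each set alone and leaving out each library.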

Additional observations from a re-analysis of the deposited data

Results flagged for a closer look

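Within each set, the highest and lowest library of every member was compared with the rest by Dixon's test in 7 groups (all neurons and the *C1ql3*, *Adarb2*, *Nwd2*, *Egflam*, *Col12a1* and *Glis3* neurons), with 4 to 6 libraries each. *Gad2* and *Npsr1* neurons had too few libraries. Of the 126 comparisons, 16 had a library far from the others, where chance gives about 1 in 20 for a single comparison. The comparisons are not independent, since *C1ql3* neurons are part of all neurons and the subtype groups part of the *C1ql3* neurons. No excess over chance is therefore read from the 16. Over all neurons, *Syt1* was 1741 CPM in replicate 4 of the first set (others 1562 to 1584) and 1605 in female replicate 3 (others 1768 to 1864), *Unc13b* was 168.1 in female replicate 6 (others 138.3 to 147.0), and *Unc13c* and *Syt2* were 117.6 and 12.94 in female replicate 1 (others 77.8 to 89.1 and 2.05 to 5.76). In *C1ql3* neurons, *Syt1* was 1270 CPM in replicate 4 of the first set (others 1070 to 1100), *Cadps* 838.1 in female replicate 3 (others 925.7 to 975.5) and *Unc13b* 177.8 in female replicate 6 (others 142.0 to 153.0). In *Adarb2* neurons, *Syt1* was 2470 CPM in replicate 1 of the first set (others 2712 to 2750), *Rims1* 2046 in female replicate 3 (others 2199 to 2265) and *Syt2* 6.498 in female replicate 1 (others 1.75 to 2.49). In *Nwd2* neurons *Unc13c* was 114.5 CPM in female replicate 1 (others 30.8 to 53.9).

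Among the subtype groups, *Cadps2* was 47.77 CPM in *Egflam* neurons of replicate 1 of the first set (others 11.9 to 15.1) and 32.57 in *Col12a1* neurons of female replicate 3 (others 0 to 9.31). *Unc13c* was 66.96 CPM in *Col12a1* neurons of female replicate 4 (others 6.28 to 24.8), and *Syt2* was 3.693 in *Egflam* neurons of female replicate 5, where the others were at 0. The difference of *Unc13a* between *Npsr1* neurons and the mean of the other subtype groups had opposite signs in the sets, with means of -0.07259 and 0.128 on the log2 scale over 2 libraries each; this difference between the sets was not tested.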

How the results depend on the processing

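The number of genes called between the sets in neurons was 676 and moved with the processing, to 1296 without the filter on low counts, 1036 with DESeq2, and 465 to 2137 when 1 library was left out, the highest without replicate 2 of the first set. With the replicate number as a replicate block over the 8 libraries that share numbers 1 to 4 it was 266, against 375 in the same libraries without the block, which was added after the data were seen. Deviations of same-numbered libraries correlated at -0.079, -0.0581, -0.125 and 0.085, so the numbers do not pair the libraries. No member was called in any of the 18 fits.

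The release genes called ranged from 43 to 47 (neurons against other types), 42 to 45 (regional groups) and 15 to 18 (subtype groups) with 1 library left out. A member's difference of the same sign in every library and over 0.5 on the log2 scale was found for 8 of 9 in neurons (8 to 8). *Syt2*, among these 8, fell under 0.5 with 10 CPM added. The rule was met by 16 of 36 pairs in regional groups (13 to 16) and 5 of 36 in subtype groups (5 to 6). In the subtype groups it was 8 of 36 in female libraries only. Of all genes or pairs tested, 45.6, 20.1 and 6.41% passed in neurons, regional groups and subtype groups. Without the *Gad2* neurons, chosen after the data were seen, the count in the regional groups was 13. This count is over fewer than 36 pairs, since the pairs with *Gad2* neurons were left out, so it does not show a fall. Of the differences of single members, 1409 values under alternatives moved by less than 1 SD between libraries and 38 by more. Another 2 were counted as reversed, a label given only where the main difference had the same sign in every library. Sign changes of the other differences are among the 1409 and the 38. *Cadps2* in *Gad2* neurons against the other regional groups reversed from 1.55 to -1.027 with at least 3 UMIs of the marker and none of the others. *Unc13c* in *Npsr1* neurons reversed from -0.26 to 0.6934 where *C1ql3* was not required. The cause was not tested. Groups of 2 and 4 libraries and *Syt2*, at 480 UMIs in all neurons, limit what can be said at this depth.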
